A study of Homo sapiens with 22 samples.

Results

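The genes described here were the collagen genes of 2 human melanoma cell lines, taken as every symbol made of COL, a type number, the letter A and a chain number. The rule used no measured value and found 44 genes among 33538 in the gene table of the untreated WM989 wells and among 36601 in the tables of WM983B and of the treatment libraries. By type, 11 were fibrillar collagens, 6 basement membrane chains (type IV), 5 beaded filament chains (type VI), 1 the anchoring fibril chain (COL7A1), 3 short-chain network chains, 10 fibril-associated collagens (FACIT), 4 transmembrane collagens, 2 multiplexins and 2 others. The question the design poses is how levels of a gene differ between melanoma cells in the primed state, from which resistance to BRAF and MEK inhibitors more often arises, and cells in the drug-susceptible state, and whether TGFB1, a TGFB receptor inhibitor or a PI3K inhibitor moves them.

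WM989 A6-G3 and WM983B E9-D5 are each a melanoma line taken repeatedly through a single-cell bottleneck, so each stands for 1 clone, and no sample had received a BRAF or MEK inhibitor. Untreated WM989 cells carried a transcribed lentiviral lineage barcode, were sorted into cells high for EGFR and NGFR or into a mixed population, were grown on and were read as 8 wells, 4 from r1 and 4 from r2, the replicates of the sort. The labels do not give the sort of a well, and pairs of wells came from the same culture, so ranges and medians over wells are given, without a test. WM983B cells were untreated and gave 1 library. In the treatment experiment, barcoded WM989 cells from 1 well per replicate were split over 4 plates and left untreated or given TGFB1, the TGFB receptor inhibitor LY2109761 (TGFBRi) or a PI3K inhibitor (PI3Ki), with replicates r1 and r2, which gave 8 libraries. The sample labels name the sets of these libraries Mix and Primed, without saying which is r1. Separately, WM989 cells were sorted for chromatin accessibility (ATAC-seq) into groups labelled Mix, EGFR-NGFR-High, EGFR-High and NGFR-High, with 3 libraries each. The labels do not say what Mix holds; the methods name the remaining sort as negative for both proteins.

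Collagens are extracellular proteins built from 3 chains wound into a triple helix. Fibrillar chains form the fibrils of connective tissue, type IV chains form the sheet of the basement membrane, and type VI chains form beaded microfilaments next to cells. FACIT chains sit on fibril surfaces, multiplexins lie at basement membranes and release fragments such as endostatin, and transmembrane collagens span the membrane of the cell that makes them. Chains are hydroxylated and folded in the endoplasmic reticulum, trimmed and cross-linked outside the cell, and bound there by integrins and discoidin domain receptors. TGFB1 is known as an inducer of collagen genes in fibroblasts.

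Promoter sequences are shown for 4 members on which the results below turn: COL6A2, high in primed WM989 cells; COL5A1 and COL18A1, raised by TGFB1; and COL27A1, whose levels overlapped between the states of untreated WM989. Each is the 250 bases before an annotated start in RefSeq (GRCh38.p14), printed 5′ to 3′ on the gene's strand, with capitals on TATA boxes of the gene's strand or its complement and on GC boxes of either strand, both spelled out below. COL6A2 lies at chr21:46097862-46098111, COL5A1 at chr9:134641553-134641802, COL18A1 at chr21:45404915-45405164 for the outer start and chr21:45455272-45455521 for the inner one, and COL27A1 at chr9:114155287-114155536, all on the plus strand. Each window is upstream of the first exon that begins at its start, except that the outer COL18A1 window overlaps an annotated exon by 29 bases. The inner COL18A1 window lies inside the gene (chr21:45405165-45513720), downstream of the outer start.
COL6A2: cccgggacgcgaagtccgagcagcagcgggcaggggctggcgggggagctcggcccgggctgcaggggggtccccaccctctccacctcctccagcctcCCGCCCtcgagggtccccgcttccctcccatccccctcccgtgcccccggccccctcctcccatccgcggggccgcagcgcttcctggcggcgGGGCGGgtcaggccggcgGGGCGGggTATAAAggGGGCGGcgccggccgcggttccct
COL5A1: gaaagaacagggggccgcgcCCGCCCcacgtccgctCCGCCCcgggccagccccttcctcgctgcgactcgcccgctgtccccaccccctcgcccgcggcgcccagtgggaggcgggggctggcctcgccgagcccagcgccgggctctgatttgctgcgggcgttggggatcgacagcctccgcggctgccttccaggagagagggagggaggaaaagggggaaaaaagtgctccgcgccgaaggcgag
COL18A1 outer: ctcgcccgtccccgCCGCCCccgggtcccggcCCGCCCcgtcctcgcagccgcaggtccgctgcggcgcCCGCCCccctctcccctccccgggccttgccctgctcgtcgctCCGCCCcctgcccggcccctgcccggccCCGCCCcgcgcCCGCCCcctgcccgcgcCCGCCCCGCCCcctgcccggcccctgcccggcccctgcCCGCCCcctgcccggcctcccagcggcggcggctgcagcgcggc
COL18A1 inner: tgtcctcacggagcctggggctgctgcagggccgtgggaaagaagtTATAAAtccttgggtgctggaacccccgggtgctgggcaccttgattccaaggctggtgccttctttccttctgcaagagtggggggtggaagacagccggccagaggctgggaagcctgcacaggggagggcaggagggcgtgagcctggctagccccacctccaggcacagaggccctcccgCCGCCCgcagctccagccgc
COL27A1: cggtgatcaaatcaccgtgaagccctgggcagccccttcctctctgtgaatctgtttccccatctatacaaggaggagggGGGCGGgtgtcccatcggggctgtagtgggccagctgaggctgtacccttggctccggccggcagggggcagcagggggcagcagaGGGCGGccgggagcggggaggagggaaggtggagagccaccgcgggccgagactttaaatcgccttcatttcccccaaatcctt

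The COL6A2 window held 1 TATA box, which began 32 bases before the start, and 4 GC boxes, and 79.6% of its bases were G or C. COL5A1 held 2 GC boxes and no TATA box at 74.0% G or C. The outer COL18A1 window held 9 GC boxes and no TATA box at 88.4% G or C, and the inner one held 1 TATA box, 204 bases before the start, and 1 GC box at 66.4%. COL27A1 held 2 GC boxes at 64.4% G or C. Promoters were found for 32 members in 44 windows, and COL1A1, COL1A2, COL6A1, COL8A1 and COL9A3 were among the 12 members without an entry in the table used. Over both strands, a TATA box (TATAAA) was in 8 of the 44 member windows and in 10.8% of all 34943 windows of the same length, and a GC box (GGGCGG) in 24 and in 42.5%. The AP-1 motif TGANTCA was in 1 member window and 6.59% of all, the SMAD-binding CAGACA in 3 and 13.6%, and the TEAD motif GGAATG in 3 and 11.9%. None of these 3 motifs was in the 5 windows printed.

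Levels are given as CPM, the usual depth-scaled count: the unique molecular identifiers (UMIs) of a gene, summed over the cells of a group, were divided by all UMIs of that group and scaled by a fixed factor. The counts are 3′ tags, so CPM values are not scaled by gene length. The 8 untreated WM989 wells held 12531 cells, 408 to 3841 a well, with 35882876 to 177318308 UMIs a well; 2843 cells were called primed and 9688 drug-susceptible by the authors from these same counts. The WM983B library held 731 primed and 718 drug-susceptible cells and 102738398 UMIs, and the 8 treatment libraries 3692 to 6273 cells and 70239657 to 122420544 UMIs each. Between libraries, 19 cell barcodes were shared in the wells and 194 in the treatment experiment.

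The summed level of 7 melanocytic markers (SOX10, MITF, PMEL, MLANA, TYR, DCT, TYRP1) ran over the wells from 110 to 525 CPM in primed cells, and from 4585 to 5435 CPM in the drug-susceptible ones. Of 6 fibroblast markers, PDGFRA, PDGFRB and FAP stood at 47.3, 13.5 and 29.8 CPM in primed cells and under 1 CPM in drug-susceptible cells, DCN at 6.19 and 1.33 CPM, and LUM at 16.9 and 32.2 CPM. THY1 was near 0, at 0.0624 and 0.0448 CPM. The sum of the 6 ran from 66.6 to 134 CPM over wells in primed cells and from 29.0 to 43.1 CPM in drug-susceptible cells. Among endothelial markers PECAM1 stood at 22.8 CPM in primed cells against 0.183 CPM in the others, VWF at 2.47 and 0.312 CPM and CDH5 at 0.00520 and 0.00358 CPM; among leukocyte markers PTPRC and CD3E were at or near 0 and CD68 at 91.8 against 44.7 CPM. The median mitochondrial percent per cell ran from 6.85 to 10.2 over wells in primed cells and from 11.1 to 15.9 in drug-susceptible cells, and was lower in primed cells of every well. The part of other cell types and of the mitochondrial share in the collagen values was not tested.

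In untreated WM989, COL6A1 and COL6A2, chains of type VI collagen, were the most abundant collagen transcripts of primed cells. COL6A1 (chr21:45981770-46005050, plus strand, hg38) ran from 645 to 1004 CPM over the 8 wells in primed cells, with a median of 815 CPM. In drug-susceptible cells of the same wells it ran from 22.1 to 50.3 CPM, with a median of 31.6 CPM, so the groups did not overlap. Pooled over wells it stood at 838 against 27.5 CPM, a ratio of 30.5.

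COL6A2, whose gene lies 93062 bp downstream of COL6A1 on the same strand (chr21:46098112-46132848), ran from 438 to 1182 CPM in primed cells, with a median of 656 CPM. In drug-susceptible cells it ran from 12.8 to 33.0 CPM, with a median of 22.9 CPM, and the pooled ratio was 48.7. Both groups were again apart in every well. The COL6A1 level was 1.04 times the COL6A2 level in primed cells and 1.65 times in drug-susceptible cells.

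COL6A3, the chain that joins COL6A1 and COL6A2 in the common type VI trimer, was low. Its primed level was 3.72 CPM and its drug-susceptible level 0.797 CPM, it was higher in primed cells in all 8 wells, and its groups overlapped. In primed cells COL6A1 was 225 times COL6A3, and over the wells this ratio ran from 66.2 to 647. COL6A5, an alternative to COL6A3, stood at 14.5 and 11.7 CPM, a ratio of 1.23 with overlapping groups. The levels of the chains of type VI were therefore far from equal within primed cells, on a scale that counts 3′ tags.

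**Figure D1:**
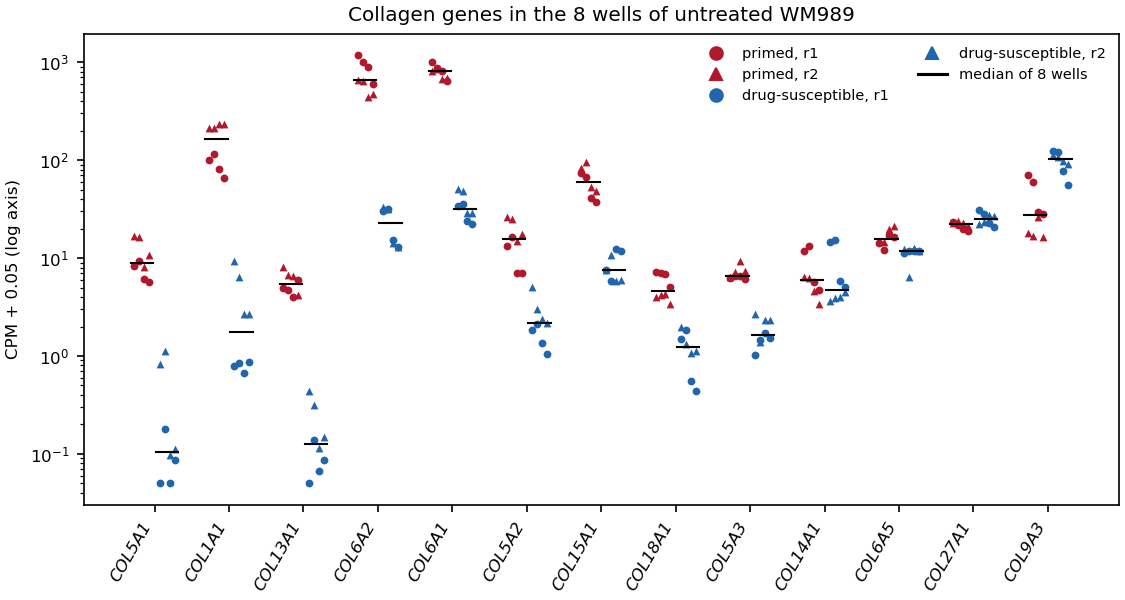
Level of collagen genes in each of the 8 untreated WM989 wells, as CPM plus 0.05 on a log axis, in primed (red) and drug-susceptible (blue) cells; circles are r1 wells, triangles r2 wells and lines the median of 8 wells. COL6A1 and COL6A2 stand at 438 CPM or more in primed cells of every well and at 50.3 CPM or less in drug-susceptible cells, COL9A3 is lower in primed cells of each well, and COL27A1 overlaps.

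COL1A1 (chr17:50184101-50201632, minus strand), the major chain of the fibrils of skin and bone, led the fibrillar genes of primed cells. There it ran from 65.9 to 237 CPM, with a median of 164 CPM. In drug-susceptible cells it ran from 0.615 to 9.22 CPM, with a median of 1.72 CPM, and the pooled ratio was 94.7. Pooled over the wells of a replicate, the ratio was 140 in r1 and 67.8 in r2, and the groups did not overlap.

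COL1A2, the partner of COL1A1 in type I collagen, was at 1.97 CPM when primed and 0.356 CPM when drug-susceptible, higher in primed cells in 7 of 8 wells. COL1A1 was 81.4 times COL1A2 in primed cells, and this ratio ran from 16.0 to 207 over the wells. Primed WM989 cells held much COL1A1 tag beside little COL1A2 tag in all 8 wells, to an extent that differed between wells. The levels lay closer together in untreated primed cells of the treatment libraries. There COL1A1 stood at 54.4 and 41.9 CPM in r1 and r2, and COL1A2 at 14.2 and 7.24 CPM.

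The type V chains, which nucleate type I fibrils, were lower than COL1A1. COL5A1 (chr9:134641803-134844843) ran from 5.71 to 16.9 CPM in primed cells, with a median of 8.77 CPM, and from 0 to 1.07 CPM in drug-susceptible cells, with a median of 0.0542 CPM. COL5A2 ran from 6.94 to 26.1 CPM and from 1.0 to 5.05 CPM, with medians of 15.5 and 2.11 CPM. COL5A3 ran from 6.03 to 9.37 CPM and from 0.979 to 2.62 CPM, with medians of 6.48 and 1.58 CPM. The pooled ratios were 144 for COL5A1, 10.9 for COL5A2 and 3.78 for COL5A3, and none of the 3 genes' groups overlapped. COL27A1, a fibrillar collagen of cartilage, ran from 18.9 to 24.1 CPM in primed and from 20.6 to 31.1 CPM in the others, a ratio of 0.924 with overlapping groups.

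COL15A1, a multiplexin of the basement membrane zone, ran from 37.7 to 95.4 CPM in primed cells, with a median of 60.3 CPM, against 5.75 to 12.4 CPM in drug-susceptible cells, with a median of 7.48 CPM. COL18A1, the source of endostatin, stood lower, at 5.48 and 0.834 CPM pooled. The ratios were 8.0 for COL15A1 and 6.57 for COL18A1, and the groups did not overlap for either. The transmembrane collagen COL13A1 stood at 5.87 CPM in primed cells (3.99 to 8.04 over wells) against 0.0627 CPM, a ratio of 93.7.

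COL9A3 (chr20:62816244-62841159), a chain of the FACIT type IX, was the most abundant collagen of drug-susceptible cells and went the other way in these wells. It ran from 16.4 to 70.3 CPM in primed cells, with a median of 27.2 CPM, and from 55.9 to 124 CPM in drug-susceptible cells, with a median of 103 CPM. The pooled ratio was 0.452, the level was lower in primed cells in all 8 wells, and the ranges of the groups overlapped. Pooling the wells of a replicate gave 0.750 for r1 and 0.187 for r2. By this pooled ratio the r1 wells alone did not pass the bound of 0.5, nor did all wells without well 5 or without well 6. The wells pooled were of unlike composition. Primed cells numbered 256, 1059, 126 and 263 in wells 1, 2, 3 and 4 of r1, and drug-susceptible cells 194, 639, 1475 and 3578. Pooled ratios, for the other genes as well, therefore also carry differences between wells. The value of 0.750 need not be the ratio within any r1 well. The other chains of type IX were low: COL9A1 stood at 0.0468 and 1.86 CPM, lower in primed cells in 8 of 8 wells, and COL9A2 at 1.40 and 0.974 CPM.

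The FACIT gene COL14A1 stood at 8.85 and 5.96 CPM but was higher in primed cells in 3 of 8 wells. Below 5 CPM in both states, COL16A1 stood at 4.67 against 1.57 CPM, COL8A1 at 3.0 against 0.0376 CPM and COL10A1 at 2.79 against 0.0412 CPM, all higher in primed cells in 8 of 8 wells without overlap. COL19A1 stood at 0.458 against 2.58 CPM, lower in all 8 wells without overlap. COL7A1 stood at 1.94 against 1.81 CPM, COL12A1 at 0.926 against 0.278 CPM, COL4A1 at 0.260 against 0.0215 CPM, COL4A2 at 0.572 against 0.0125 CPM and COL25A1 at 0.749 against 1.07 CPM. COL11A2, COL24A1 and COL26A1 stood at 0.302, 0.250 and 0.213 CPM in primed cells against 1.02, 0.517 and 0.637 CPM.

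Of the 44 members, 13 reached 5 CPM in at least 1 state, all 13 of them in primed cells and 7 in drug-susceptible cells. At a ratio over 2 with the same direction in all 8 wells, 9 of the 13 were higher in primed cells (COL1A1, COL5A1, COL5A2, COL5A3, COL6A1, COL6A2, COL13A1, COL15A1, COL18A1) and 1 was lower (COL9A3). Over all 10313 genes at that minimum, 11.0% were higher by the same rule and 6.71% lower. The share of all genes whose ranges over wells did not overlap between the states was not counted. Lack of overlap, given above for single members, is therefore a description. The median log2 ratio was 3.0 for the 13 members and 0.04 for all 10313 genes. COL1A1, COL5A1, COL5A2, COL5A3, COL13A1 and COL18A1 reached the minimum only in primed cells. Members that reached it only in the state where they were high could only differ in 1 direction, so the counts and median are a description. Apart from 29 members named here, the other 15 stood at no more than 3.38 CPM in any state and at no more than 0.238 CPM in any treatment library; the highest was the transmembrane COL17A1, at 3.38 against 0.0269 CPM. COL21A1 had 0 UMIs in the wells.

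Summed over the 44 genes, collagen transcripts made up 2042 CPM of the primed WM989 cells and 199 CPM of the others. Type VI chains held 81.5% of the collagen UMIs of primed cells, COL6A1 and COL6A2 alone 80.6%, and fibrillar chains 10.9%. In drug-susceptible cells FACIT chains held 48.6%, type VI chains 28.4% and fibrillar chains 15.9%. In WM983B the sums were 444 and 332 CPM, with 41.8% and 44.2% in FACIT chains and 25.9% and 27.2% in basement membrane chains.

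**Figure D2:**
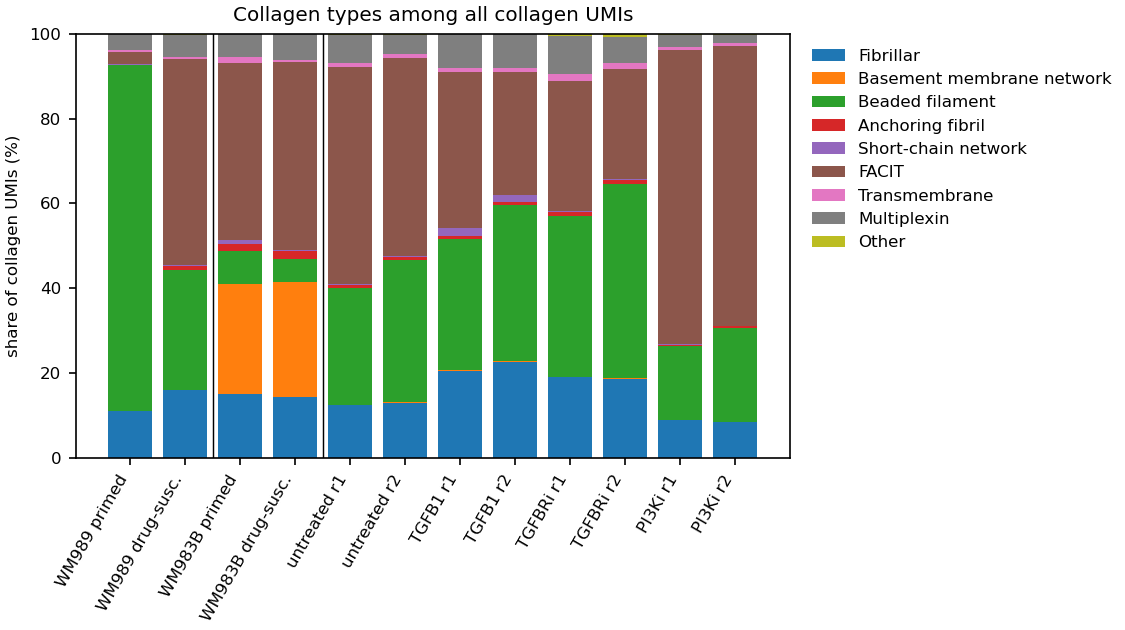
Share of each collagen type among all collagen UMIs, in percent, for the 2 states of untreated WM989, the 2 states of WM983B and all cells of the 8 treatment libraries; vertical lines part the experiments. Type VI chains take 81.5% in primed WM989 cells, FACIT chains 48.6% in drug-susceptible WM989 cells, and basement membrane chains 25.9% and 27.2% in WM983B.

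The share of cells with at least 1 UMI followed the same order. COL1A1 was seen in 81.1% of 2843 primed cells (95% exact interval 79.6 to 82.5%) and in 5.09% of 9688 drug-susceptible cells (4.66 to 5.55%), at median depths of 58253 and 52835 UMIs. Thinned to 10000 UMIs a cell, which left out 0 cells, the shares were 53.5% and 1.18%. COL6A1 was seen in 99.7% and 63.7% of cells, or 96.7% and 22.0% after thinning. COL9A3 was seen in 65.6% and 86.0%, or 27.9% and 46.6% after thinning. In WM983B, a separate library, COL1A1 was seen in 0.547% of 731 primed cells and 1.25% of 718 drug-susceptible cells, at median depths of 63758 and 72188 UMIs. That share is no measure of free RNA in the WM989 wells, which held no cell type known to lack the gene. In r2 the drug-susceptible COL1A1 level was 9.22 and 6.41 CPM in the wells with 79.7 and 76.9% primed cells, and 2.61 and 2.65 CPM in those with 9.17 and 9.42%. In r1 it was 0.749 and 0.806 CPM at 56.9 and 62.4% primed, and 0.615 and 0.822 CPM at 7.87 and 6.85%. The part of free RNA in the drug-susceptible shares was not tested. Intervals cover counting error only.

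Between primed cells the levels were uneven to a degree that differed by gene. The 10% of primed WM989 cells with the highest levels, taken gene by gene, held 25.8% of the summed COL6A1 level, 27.4% of COL6A2, 40.4% of COL15A1, 45% of COL1A1 and 50.5% of COL5A1. Sorting by the deposited clusters, the authors' grouping of cells by overall expression, COL6A1 stood at 922, 517 and 847 CPM in the 3 primed clusters numbered 2, 8 and 9, and COL1A1 at 172, 102 and 171 CPM. Cluster 8 was the lowest of the 3 for both genes, for COL6A2 (473 CPM) and for COL15A1 (36.6 CPM). The clusters were built from these same counts, so these levels are a description.

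Among the 8 drug-susceptible clusters, cluster 4 (1202 cells) had the highest COL6A1 (51.1 CPM against 18.4 to 32.9 CPM elsewhere), the highest COL1A1 (3.98 CPM) and the highest COL9A3 (147 CPM against 61.2 to 88.5 CPM elsewhere). It also had the lowest COL6A5, 2.38 CPM against 10.4 to 17.3 CPM elsewhere. Both replicates showed this: COL6A5 in cluster 4 was 2.27 CPM in r1 and 2.65 CPM in r2, and COL9A3 was 140 and 165 CPM. COL6A2 was also highest there, at 37.2 CPM against 11.4 to 17.6 CPM elsewhere.

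**Figure D3:**
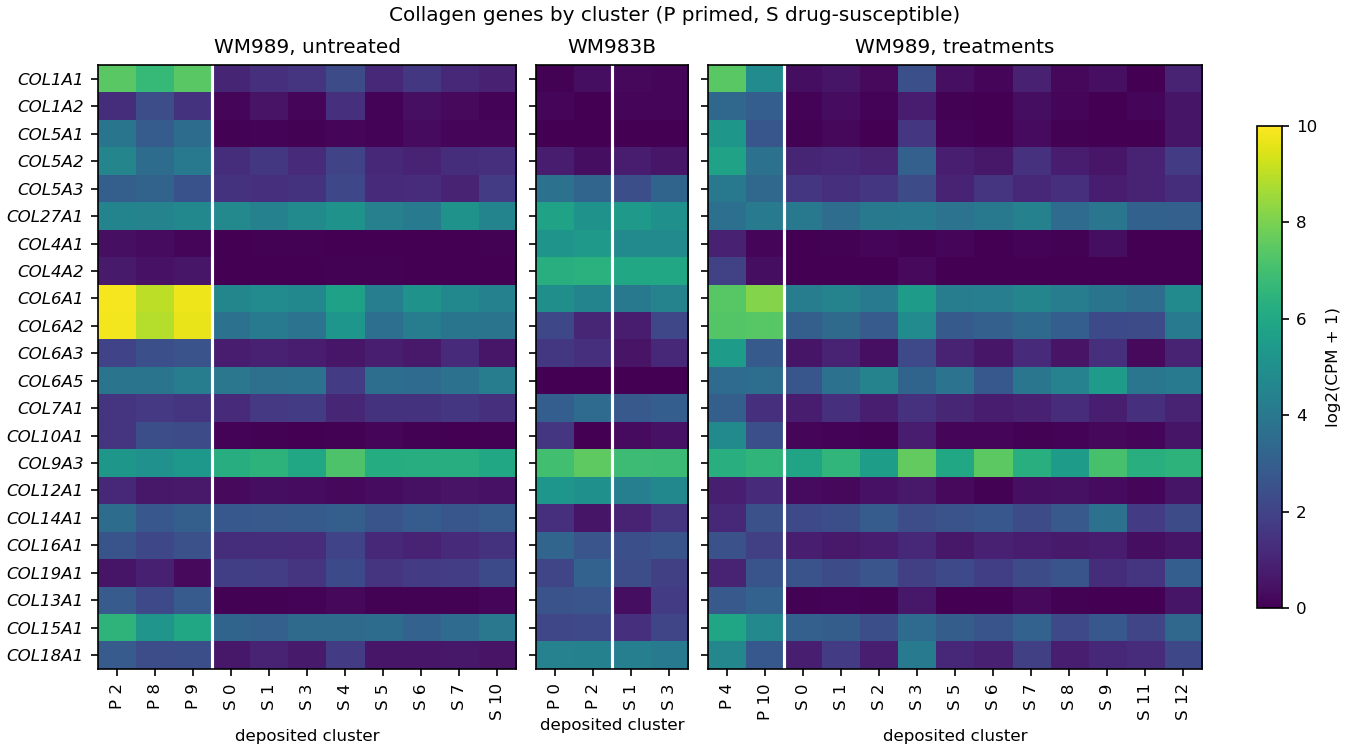
Heat map of log2(CPM + 1) for 22 collagen genes (rows) in each deposited cluster (columns) of untreated WM989, WM983B and the treatment libraries; P marks primed and S drug-susceptible clusters, parted by a white line. COL6A1 and COL6A2 are brightest in primed clusters 2, 8 and 9 of untreated WM989, and COL4A1 and COL4A2 are brighter in each WM983B cluster than in any WM989 cluster.

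More primed than drug-susceptible cells were called G1, 62.6 to 78.7% against 20.1 to 31.9% over the wells, so levels were also read within each cell cycle phase. The ratio of primed to drug-susceptible cells was 28.7, 31.4 and 31.6 for COL6A1 in cells called G1, S and G2M, 82.2, 96.4 and 107 for COL1A1, and 0.407, 0.519 and 0.489 for COL9A3. For COL27A1 it was 0.810, 0.823 and 1.12. The ratios within a phase were on the same side of 1 as the pooled ratio for COL6A1, COL1A1 and COL9A3.

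Of the 32 collagen processing genes (hydroxylases, chaperones, proteases and cross-linking enzymes), 23 reached 5 CPM in the wells, 4 were higher in primed cells by the same rule and 1 was lower. PCOLCE, which enhances the trimming of procollagen, stood at 305 against 18.2 CPM. LOXL2, a cross-linking lysyl oxidase, stood at 57.3 against 3.47 CPM, PLOD2, a lysyl hydroxylase, at 82.8 against 23.0 CPM, and P4HA2, a prolyl hydroxylase subunit, at 45.3 against 17.4 CPM. COLGALT2, a collagen galactosyltransferase, stood at 1.32 against 6.0 CPM. The median log2 ratio of the 23 was 0.25. LOXL2 reached the minimum only in primed cells and COLGALT2 only in drug-susceptible cells, so each could only differ in 1 direction, and the counts and median are a description.

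SERPINH1, the collagen chaperone HSP47, stood at 34.2 and 32.9 CPM, and P4HB, the subunit shared by the prolyl hydroxylases, at 528 and 367 CPM. Of 11 collagen receptor genes, 8 reached the minimum, and 7 of them (ITGA1, ITGA2, ITGA10, ITGA11, ITGB1, DDR1, MRC2) were higher in primed cells. Over the 8, the median log2 ratio was 2.86; 5 of them reached the minimum only in primed cells and could hardly have been lower there, so the count and median are a description. ITGB1, the shared integrin beta chain, stood at 286 against 69.0 CPM, and ITGA11, a receptor for fibrillar collagen, at 40.6 against 0.301 CPM. DDR2 stood at 99.6 against 51.8 CPM, a ratio of 1.92. Both list counts were read against the same 11.0% and 6.71% of all genes.

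In WM983B, COL9A3 led the collagen genes in both states, with 131 CPM when primed (95% exact Poisson interval 128 to 135) and 114 CPM when drug-susceptible (111 to 117). COL4A2 followed at 77.4 and 63.3 CPM and its neighbour COL4A1, on the opposite strand, at 36.2 and 26.6 CPM. These chains make the common form of type IV collagen and were at no more than 0.572 CPM in either state of the WM989 wells.

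COL27A1 stood at 50.7 and 39.6 CPM, COL12A1, a FACIT of tendon and skin, at 36.7 and 19.8 CPM, COL6A1 at 29.3 and 16.3 CPM and COL18A1 at 20.4 and 18.5 CPM. COL5A3 was at 11.7 CPM (10.8 to 12.7) when primed and 4.84 CPM (4.27 to 5.47) otherwise. COL16A1 stood at 8.05 and 4.54 CPM, COL7A1, the chain of anchoring fibrils, at 7.37 and 6.01 CPM, and COL13A1 just below the minimum, at 4.96 and 0.575 CPM. COL1A1 had 4 UMIs in primed and 9 in drug-susceptible cells, COL6A2 stood at 3.17 and 1.08 CPM, and COL6A5 had 0 UMIs in both states.

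Of the 10 members at 5 CPM or more, 1 (COL5A3, ratio 2.42) was more than 2-fold higher in primed WM983B cells and 0 were lower. Over 10673 genes, 1.78% were higher and 0.928% lower by that bound. The median log2 ratio of the 10 members was 0.40 against 0.04 over all genes. All 10 reached the minimum in primed cells and 8 in drug-susceptible cells; COL5A3 and COL16A1 did so only where they were high, so the count and median are a description. This is 1 library, so the differences have no replicate check and the intervals cover counting error only. Of the processing genes 2 of 21 were more than 2-fold higher in primed cells, LOXL2 (27.4 against 11.5 CPM) and LOXL3 (78.6 against 33.3 CPM), and of the receptors 2 of 7, ITGA1 and ITGA10, beside the 1.78% of all genes. The 6 fibroblast markers summed to 100 and 109 CPM in the WM983B states, of which LUM held 83.3 and 99.9 CPM and THY1 6.49 and 1.54 CPM.

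For the treatment experiment, UMIs were summed per library over all cells, over drug-susceptible cells and over primed cells, and tested with edgeR's quasi-likelihood test with replicate as a block. All 3 treatments were set against the same 2 untreated libraries, so their changes share those controls, and 2 libraries a group left 3 residual degrees of freedom. Primed cells numbered 94 and 165 in the untreated libraries, 1577 and 1757 under TGFB1, 118 and 271 under TGFBRi, and 25 and 70 under PI3Ki. The share of primed cells was 2.26 and 4.47% untreated, and 29.1 and 31.3% under TGFB1. In sums over all cells, a change in the number of cells that hold a transcript and a change in its level per cell cannot be told apart. The authors called the states from these same counts, treated cells included, so the cells held in a state may differ between treatments. Changes within a state are therefore not changes of a fixed set of cells. The p-values measure the spread between these libraries, which edgeR estimates for each gene with the help of the other genes tested. Very small p-values therefore do not rest on the 2 libraries a group alone. The labels name the replicates Mix and Primed without saying which is r1.

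Over all cells, TGFB1 raised most of the collagen genes that could be tested. Of 44 members 32 were tested, 22 rose and 4 fell, against 29.0% of all 18389 genes called in either direction. The median log2 change was 1.33 over the tested members and 0.01 over all genes. Some members were near 0 untreated and could hardly have fallen, such as COL4A2, at 0.938 CPM in its highest treatment library. Here and within the states, the counts and medians under TGFB1 are therefore a description. The fall was seen in COL19A1, COL9A1, COL11A2 and COL26A1. Over all cells the fibroblast markers summed to 31.0 to 31.8 CPM untreated and 48.6 to 52.9 CPM under TGFB1, and the melanocytic markers to 4512 to 4558 and 3009 to 3241 CPM. In drug-susceptible cells the same sums were 30.9 to 31.4 and 33.5 to 37.1 CPM, and 4620 to 4630 and 3857 to 4204 CPM. The part of these markers in the changes was not tested.

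COL1A1 over all cells stood at 1.1 and 1.65 CPM in the untreated libraries and at 43.6 and 48.3 CPM under TGFB1. Its log2 change was 5.06 (SE 0.12, adjusted p = 4.3e-18, edgeR). COL5A1 went from 0.0768 and 0.449 CPM to 9.31 and 11.9 CPM (log2 change 5.32, SE 0.21), and COL10A1, a short-chain collagen of growth plate cartilage, from 0.0768 and 0.374 CPM to 7.61 and 6.57 CPM (4.94, SE 0.24). Both TGFB1 libraries were above both untreated libraries for each of these genes.

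COL6A3 rose from 1.04 and 0.897 CPM to 12.9 and 14.5 CPM, COL18A1 from 1.17 and 1.12 CPM to 15.1 and 13 CPM and COL5A2 from 1.32 and 1.62 CPM to 16.5 and 16.7 CPM. COL6A1 rose from 24.6 and 26.6 CPM to 63.7 and 71.1 CPM (log2 change 1.38, SE 0.08) and COL6A2 from 11.8 and 12 CPM to 53.4 and 53.9 CPM (2.16, SE 0.09). COL9A3 rose from 71.8 and 67.3 CPM to 156 and 121 CPM (0.97, SE 0.07). COL19A1 fell from 4.15 and 4.13 CPM to 1.95 and 2.17 CPM (−1.02, SE 0.11). The other rises were 4.53 for COL4A2, 2.71 for COL8A1, 2.54 for COL1A2, 2.49 for COL13A1, 2.09 for COL4A1, 1.87 for COL5A3, 1.56 for COL7A1, 1.48 for COL15A1, 1.28 for COL16A1, 1.03 for COL12A1, 0.77 for COL25A1, 0.67 for COL9A2 and 0.42 for COL6A5 on the log2 scale. COL9A1, COL11A2 and COL26A1 fell by 1.0, 0.87 and 0.85 on that scale.

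Within drug-susceptible cells 16 of 29 tested members rose under TGFB1 and 1 fell, against 14.9% of all 17914 genes called. The median log2 change was 0.74 over members and 0.00 over all genes. These sums hold only the cells still called drug-susceptible under each treatment. COL18A1 rose from 1.07 and 0.978 CPM to 12.4 and 9.38 CPM (log2 change 3.39, SE 0.14, adjusted p = 3.1e-14, edgeR). COL1A1 rose from 0.169 and 0.360 CPM to 2.88 and 2.42 CPM (3.29, SE 0.23), COL6A3 from 0.847 and 0.643 CPM to 3.63 and 2.96 CPM (2.13, SE 0.16) and COL5A2 from 1.07 and 1.17 CPM to 4.70 and 3.49 CPM (1.85, SE 0.15). COL5A1 had 0 and 4 UMIs untreated and 71 and 69 UMIs under TGFB1.

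Of the members abundant in these cells, COL9A3 rose from 71.5 and 66.3 CPM to 181 and 135 CPM (1.17, SE 0.08), COL6A2 from 8.40 and 6.32 CPM to 20.2 and 16.1 CPM (1.29, SE 0.09) and COL6A1 from 20 and 17.5 CPM to 35.1 and 31.6 CPM (0.82, SE 0.08). COL13A1, COL10A1, COL12A1, COL7A1, COL5A3, COL25A1, COL6A5 and COL15A1 rose by 1.93, 1.95, 1.1, 0.76, 0.74, 0.74, 0.57 and 0.42 on the log2 scale, and COL19A1 fell by 0.79. COL27A1 stood at 14.1 and 15.4 CPM untreated and 13.5 and 15.5 CPM under TGFB1 (−0.03, SE 0.07, adjusted p = 0.83, edgeR).

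The drug-susceptible level was a small share of the primed level of the same library for some members, and not for others. In the 8 libraries the drug-susceptible COL1A1 level was 0.311 to 1.92% of the primed level. Under TGFB1 it was 1.75 and 1.37% for COL1A1, 3.55 and 2.64% for COL5A1, 23.6 and 17.5% for COL6A1 and 53.2 and 40.5% for COL18A1. For COL9A3 under TGFB1 the drug-susceptible level was higher, at 230 and 167% of the primed level. The COL9A3 share was 83.4 and 65.9% untreated, 29.4 and 28.2% under TGFBRi, and 94.6 and 148% under PI3Ki. The part of free RNA from primed cells in the lowest of these shares was not tested.

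Within primed cells 9 of 19 tested members rose under TGFB1 and 3 fell, against 13.3% of all 10930 genes called, with a median log2 change of 0.08 over members and 0.00 over all genes. COL1A1 rose from 54.4 and 41.9 CPM to 165 and 177 CPM (log2 change 1.95, SE 0.16, adjusted p = 7.5e-13, edgeR), COL6A3 from 11.9 and 8.85 CPM to 40.5 and 46.7 CPM (2.21, SE 0.23) and COL5A2 from 15.7 and 15.7 CPM to 51.6 and 53.5 CPM (1.84, SE 0.19). COL10A1, COL5A1, COL18A1, COL7A1, COL5A3 and COL15A1 rose by 2.22, 2.08, 2.02, 1.82, 1.47 and 1.02 on the log2 scale. Fibrillar chains held 33.5% of the collagen UMIs of primed cells in each TGFB1 library against 14.5 and 12.6% in the untreated ones.

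COL6A1 went down in primed cells under TGFB1, from 290 and 311 CPM to 149 and 181 CPM (−0.79, SE 0.13, adjusted p = 7.3e-06, edgeR), whereas it rose in drug-susceptible cells of the same libraries; the difference between the states was not tested. COL19A1 and COL14A1 fell by 1.81 and 2.08 on the log2 scale. COL6A2 stood at 208 and 190 CPM untreated and at 152 and 160 CPM under TGFB1 (−0.26, SE 0.13, adjusted p = 0.18, edgeR). COL6A1 was 24.3 and 35.1 times COL6A3 in untreated primed cells and 3.68 and 3.88 times under TGFB1. The primed cells of the 2 groups also lay in different deposited clusters: cluster 10 held 94.7 and 96.4% of the untreated ones, and cluster 4 held 98.2 and 97.1% of those under TGFB1. Within cluster 10, COL6A1 stood at 303 and 305 CPM untreated and at 152 and 114 CPM under TGFB1. COL1A1 there stood at 32.2 and 41.0 CPM untreated and at 11.2 and 1.62 CPM in the 29 and 51 cells under TGFB1, the opposite direction to all primed cells. Cluster 4 held 5 and 6 untreated cells. The clusters were built from these same counts, so these levels are a description. The 6 fibroblast markers summed to 38.8 to 45.1 CPM in untreated primed cells and to 91.0 to 99.8 CPM under TGFB1, and their part in these changes was not tested.

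**Figure D4:**
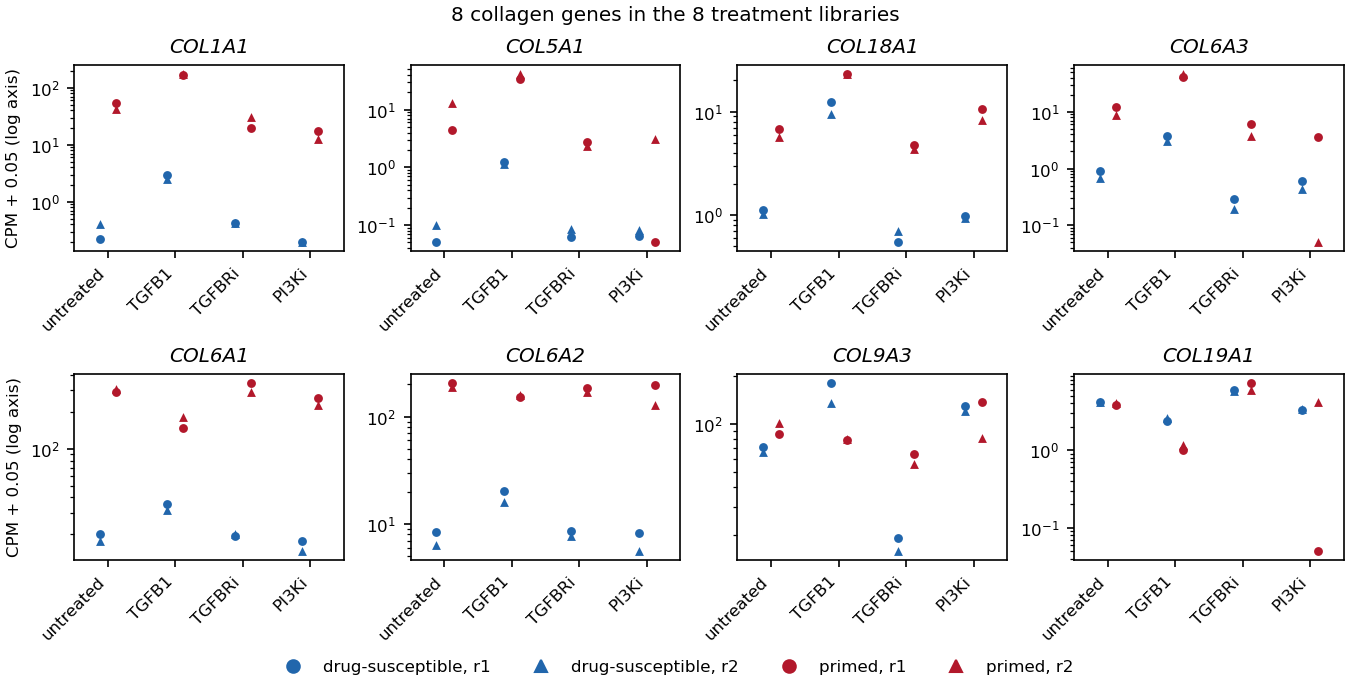
Level of 8 collagen genes in the 8 treatment libraries, as CPM plus 0.05 on a log axis with its own range for each gene; blue points are drug-susceptible and red points primed cells, circles r1 and triangles r2. Under TGFB1, COL1A1, COL5A1, COL18A1 and COL6A3 are above the untreated libraries in both states, COL6A1 is lower in primed and higher in drug-susceptible cells, and COL9A3 is lowest in drug-susceptible cells under TGFBRi.

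The TGFB receptor inhibitor changed fewer members. Over all cells 2 rose and 4 fell of 32 tested, against 2.53% of all genes called, with a median log2 change of −0.06 over members and 0.00 over all genes. Without the second untreated library 3 members were called. In drug-susceptible cells the count was also 2 and 4, of 29 tested, against 2.81% of all genes, and the members' median was 0.01.

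COL9A3 fell from 71.8 and 67.3 CPM to 19.8 and 17.1 CPM over all cells (−1.90, SE 0.08, adjusted p = 4.1e-13, edgeR) and from 71.5 and 66.3 CPM to 19.0 and 15.8 CPM in drug-susceptible cells (−1.98, SE 0.09). Both TGFBRi libraries were below both untreated libraries. In primed cells it stood at 85.7 and 101 CPM untreated and 64.7 and 55.8 CPM under TGFBRi (−0.67, SE 0.17, adjusted p = 0.053, edgeR). COL9A3 was seen in 65.1% of untreated drug-susceptible cells and 20.8% of those under TGFBRi, or 27.5 and 8.08% after thinning to 5000 UMIs a cell, at median depths of 20065 and 14026 UMIs.

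In drug-susceptible cells COL6A3 fell from 0.847 and 0.643 CPM to 0.247 and 0.142 CPM (−1.92, SE 0.26) and COL18A1 from 1.07 and 0.978 CPM to 0.494 and 0.652 CPM (−0.81, SE 0.21). COL6A5 fell from 6.85 CPM to 2.75 CPM in r1 and from 17.4 CPM to 10.5 CPM in r2 (−0.94, SE 0.10), and the replicates differed more than the treatments did. COL5A3 and COL19A1 rose by 0.69 and 0.49 on the log2 scale. COL6A1 over all cells stood at 25.2 and 29.4 CPM, beside 24.6 and 26.6 CPM untreated, and was not called. In primed cells 0 members rose and 1, COL5A1, fell, of 19 tested, against 0.375% of all genes, with a members' median of −0.42; COL5A1 went from 6 and 32 UMIs (4.47 and 12.9 CPM) to 4 and 7 UMIs (2.67 and 2.31 CPM), with an adjusted p of 0.040 (edgeR). At unadjusted p under 0.05, 6 members were past the threshold there, as were 944 of the 10930 genes (8.64%), and DESeq2 called 0.

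Under the PI3K inhibitor, COL1A1 and 8 other members fell over all cells, and COL9A3 and 3 others rose. This was of 32 members tested, against 12.7% of all genes called, with a median log2 change of −0.28 over members and 0.00 over all genes. COL1A1 fell from 1.1 and 1.65 CPM to 0.214 and 0.245 CPM (−2.48, SE 0.25, adjusted p = 6.0e-07, edgeR). COL13A1, COL5A1, COL1A2, COL6A3, COL15A1, COL5A2, COL6A2 and COL6A1 fell by 2.59, 2.58, 2.54, 0.98, 0.91, 0.88, 0.55 and 0.46 on the log2 scale. The largest of these falls were in genes near the floor. COL5A1 was near 0 over all untreated cells, as given above. In untreated drug-susceptible cells COL13A1 stood at 0.0782 and 0.0643 CPM and COL1A2 at 0.130 and 0.309 CPM. The share of primed cells was 0.647 and 1.21% under PI3Ki. The fibroblast markers summed to 21.6 to 22.1 CPM over all cells and to 21.4 to 22.1 CPM in drug-susceptible cells, below the untreated sums given above, and the melanocytic markers to 5559 to 5875 and 5570 to 5907 CPM, above them. Their part in the changes was not tested. Without the second PI3Ki library 4 members were called.

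COL9A3 rose from 71.8 and 67.3 CPM to 129 and 120 CPM (0.94, SE 0.07, adjusted p = 1.2e-08, edgeR), and COL24A1, COL14A1 and COL6A5 rose by 0.90, 0.47 and 0.29 on the log2 scale. COL24A1 stood at no more than 0.655 CPM over all cells of any treatment library. In drug-susceptible cells 4 rose (COL9A3, COL24A1, COL11A2, COL14A1) and 2 fell (COL1A2, COL15A1) of 29 tested, against 12.1% of all genes, and the members' median was −0.02. COL9A3 went from 71.5 and 66.3 CPM to 129 and 120 CPM (0.96, SE 0.08), and COL15A1 from 9.09 and 5.49 CPM to 5.10 and 2.79 CPM (−0.81, SE 0.10). COL6A1 and COL6A2 were not called there, and COL6A2 stood at 8.23 and 5.51 CPM (−0.02, SE 0.09). Without the second PI3Ki library 2 members were called in these cells, and DESeq2 called 3.

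In primed cells, of which the PI3Ki libraries held 25 and 70, 0 members rose and 2 fell, of 19 tested, against 1.78% of all genes, and the members' median was −0.90. COL1A1 fell from 54.4 and 41.9 CPM to 17.5 and 12.4 CPM (−1.83, SE 0.35, adjusted p = 0.0015, edgeR). COL6A3 went from 11.9 and 8.85 CPM to 3.5 and 0 CPM, where the first is 1 UMI. In the same cells the 7 melanocytic markers summed to 1816 to 2881 CPM against 835 to 1003 CPM untreated, and 4 markers of primed cells (EGFR, AXL, NT5E, NGFR) to 63.1 to 168 CPM against 201 to 265 CPM. Their part in these falls was not tested. Without the second PI3Ki library 0 members were called, and 1 was without the first untreated library or by DESeq2.

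Of the collagen processing genes, 10 rose and 1 fell of 28 tested over all cells under TGFB1, beside 29.0% of all genes called, with a median log2 change of 0.09. PLOD2 rose from a mean of 28.0 to 58.0 CPM (log2 change 1.04, SE 0.07) and P4HA2 from 31.3 to 46.2 CPM (0.55, SE 0.07), PCOLCE from 11.4 to 17.7 CPM (0.62, SE 0.08) and LOXL2 from 4.65 to 21.5 CPM (2.21, SE 0.09; named after its value was seen), while SERPINH1 fell from 24.0 to 20.03 CPM (−0.27, SE 0.07). In drug-susceptible cells the counts were 8 and 1 of 27 tested (14.9% of all genes called), and in primed cells 2 and 6 of 23 (13.3%). In drug-susceptible cells PLOD2, P4HA2 and P3H4, a protein of the prolyl 3-hydroxylase complex, rose by 0.52, 0.32 and 0.24 on the log2 scale, and SERPINH1 fell by 0.53. In primed cells LOXL2 and PLOD2 rose by 0.84 and 0.63, and LOXL3, PCOLCE and the lysyl hydroxylase PLOD1 fell by 1.17, 0.71 and 0.67, PCOLCE from 70.0 to 40.3 CPM. PCOLCE thus rose over all cells and fell within primed cells, and stood at 10.0 CPM untreated and 9.92 CPM under TGFB1 in drug-susceptible cells (−0.03, SE 0.09).

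Under TGFBRi 2 processing genes rose and 3 fell over all cells, beside 2.53% of all genes, with a median of 0.05. SERPINH1 rose to 32.9 CPM (0.47, SE 0.07) and PCOLCE from 11.4 to 14.8 CPM, while P4HA1 fell from 83 to 65.4 CPM and PLOD2 to 21.9 CPM. Under PI3Ki 1 rose and 9 fell, beside 12.7%, with a median of −0.16 and with PLOD2 at 12.5 CPM (−1.05, SE 0.07), P4HA1 at 43.1 CPM (−0.84, SE 0.06) and P4HA2 at 17.9 CPM (−0.70, SE 0.07). Of the receptor genes, 7 rose and 0 fell of 9 tested under TGFB1, 1 rose and 0 fell under TGFBRi, and 1 rose and 4 fell under PI3Ki, beside the same 29.0, 2.53 and 12.7% of all genes. ITGB1 stood at 141 CPM untreated, 294 CPM under TGFB1 and 95.9 CPM under PI3Ki, and DDR2 at 45.9, 55.7 and 30.4 CPM, with 58.7 CPM under TGFBRi; all of these were called but ITGB1 under TGFBRi. ITGA10 rose under PI3Ki, from 32.9 to 44.3 CPM (0.52, SE 0.08). The median log2 change of the receptor list was 1.04 under TGFB1, −0.01 under TGFBRi and −0.46 under PI3Ki.

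Within the states fewer receptor genes were called under TGFB1 than over all cells. In drug-susceptible cells 4 rose and 1 fell of 9 tested, beside 14.9% of all genes called, with a median of 0.59; ITGB1 rose by 0.64 and ITGA10 fell by 0.42 on the log2 scale. In primed cells 3 rose and 0 fell of 8 tested, beside 13.3%, with a median of −0.02; ITGA11 and ITGB1 rose by 1.23 and 0.72. Under TGFBRi DDR2 rose by 0.39 in drug-susceptible cells, the 1 receptor called there (2.81% of all genes), and ITGA2 fell by 0.97 in primed cells, also the 1 called (0.375%). In drug-susceptible cells under PI3Ki ITGA10 rose by 0.58, and DDR2 and ITGB1 fell by 0.47 and 0.42 (12.1% of all genes called). In primed cells under PI3Ki 0 rose and 2 fell, ITGA2 and ITGB1, which fell by 1.06 and 0.86 (1.78% of all genes called).

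The processing genes called under the inhibitors in drug-susceptible cells numbered 2 up and 3 down of 27 for TGFBRi, beside 2.81% of all genes, and 1 up and 8 down for PI3Ki, beside 12.1%. Under TGFBRi SERPINH1 and PCOLCE rose by 0.48 and 0.45 there, and P4HA1 and PLOD2 fell by 0.34 and 0.33. Under PI3Ki PLOD2, P4HA1 and P4HA2 fell by 1.0, 0.83 and 0.66. In primed cells edgeR called 0 of 23 under TGFBRi, beside 0.375% of all genes. CRTAP, PLOD2 and COLGALT1 were under an unadjusted p of 0.05 (edgeR), as were 8.64% of all genes. Under PI3Ki 4 fell, beside 1.78% of all genes called. Among them were PLOD2, P4HA1 and P4HB, which fell by 1.56, 0.84 and 0.57.

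Levels also differed between the deposited clusters of the treatment libraries. Of the 2 primed clusters, cluster 4 (3270 cells) held COL1A1 at 175 CPM and COL6A1 at 167 CPM, and cluster 10 (807 cells) COL1A1 at 27.3 CPM and COL6A1 at 283 CPM. Of the 11 drug-susceptible clusters, cluster 3 (4007 cells) held the most COL18A1, 16.9 CPM against 0.782 to 3.46 CPM elsewhere, and the most COL9A3, 192 CPM. Cluster 9 held the most COL6A5, 44.8 CPM. Of the primed cells, 3254 of the 3270 in cluster 4 came from the TGFB1 libraries and 80 of the 807 in cluster 10. Within the TGFB1 libraries COL1A1 stood at 167 and 182 CPM in cluster 4, above the 2 cluster 10 values given earlier.

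For the ATAC-seq libraries, each gene was given the highest fold enrichment of a peak within 500 bp of its start (GENCODE v44, hg38) in each library, and 0 where no peak lay there. Of the 44 members 21 had a peak near this start in at least 3 of the 12 libraries and were tested with limma on log2(fold enrichment + 1). Against Mix, 1 member was called in EGFR-NGFR-High (0.755% of 13501 genes called), 0 in EGFR-High (0.459%) and 1 in NGFR-High (1.08%). Under an unadjusted p of 0.05 were 7 members and 1491 genes in all in EGFR-NGFR-High, 2 and 1380 in EGFR-High, and 6 and 2306 in NGFR-High. The median log2 difference over the members was 0.46 in EGFR-NGFR-High and 0.43 in NGFR-High, against 0.07 and 0.15 over all genes, and 0.00 in EGFR-High against −0.06. Of the 21, COL5A1, COL10A1, COL18A1 and COL26A1 had no peak in any Mix library and could only be higher than Mix, so these medians are a description. A member without a peak at this start can have one at another annotated start. COL5A2, COL9A2 and COL14A1 had a peak in 0 of 12 libraries here and in 12 of 12 at the MANE Select start. For COL5A2 that start lies 45551 bp away. Its means there were 4.99 in Mix, 8.26 in EGFR-High, 8.25 in NGFR-High and 11.2 in EGFR-NGFR-High.

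The member called was COL8A1 (chr3:99638475-99799226), a short-chain collagen of vessel walls. Its peak stood at 5.38, 7.54 and 8.23 in Mix, at 8.54, 12.8 and 13.2 in EGFR-High, at 17.9, 17.5 and 19.3 in NGFR-High and at 18.7, 12.8 and 13.9 in EGFR-NGFR-High. Every library of the other 3 sorts was above every Mix library. The log2 difference was 1.27 (SE 0.22, adjusted p = 0.0093, limma) in NGFR-High, 1.0 (SE 0.22, adjusted p = 0.048) in EGFR-NGFR-High and 0.63 (SE 0.22, adjusted p = 0.34) in EGFR-High. At the MANE Select start, 119 bp away, 7 of 12 libraries had a peak within the window and neither call stood, with adjusted p of 0.32 in NGFR-High and 0.31 in EGFR-NGFR-High (limma).

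COL7A1 had a mean of 4.67 ± 0.29 (SD, n = 3) in Mix and 12 ± 2.2 in NGFR-High (adjusted p = 0.055, limma). COL1A1 stood at 42.9 ± 3.1 in Mix, 48.9 ± 4.0 in EGFR-High, 63.5 ± 11.1 in NGFR-High and 59.6 ± 4.1 in EGFR-NGFR-High (SD, n = 3 each); the NGFR-High difference was 0.54 (SE 0.13, adjusted p = 0.055, limma). COL6A1 stood at 21.0 in Mix and 20.4 in EGFR-NGFR-High, with a log2 difference of −0.04 (SE 0.15, adjusted p = 0.95, limma), and COL6A2 at 14.4 and 16.6 (0.18, SE 0.18, adjusted p = 0.75). In NGFR-High COL6A1 stood at 25.6 (0.28, SE 0.15, adjusted p = 0.36, limma) and COL6A2 at 19.9 (0.43, SE 0.18, adjusted p = 0.24). The EGFR-High differences were −0.01 and 0.05. COL9A3 had the highest peak of the family, at 120, 108 and 122.5 in Mix and at 137, 137 and 102 in EGFR-NGFR-High.

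At COL5A1 a peak was found in 3 of 12 libraries, 1 NGFR-High and 2 EGFR-NGFR-High, and in none of Mix; the log2 difference of EGFR-NGFR-High from Mix was 1.72 (SE 1.07, adjusted p = 0.59, limma). COL18A1 had a peak at the outer start in 5 of 12 libraries, again none of Mix and all 3 of EGFR-NGFR-High, at 4.76, 4.25 and 5.46 (log2 difference 2.54, SE 0.92, adjusted p = 0.29, limma). Neither was called. At the inner RefSeq start, whose window is printed above with its TATA box, a peak was found in 12 of 12 libraries, at 13, 11.8 and 8.23 in Mix and 18.7, 15.1 and 16.4 in EGFR-NGFR-High. The inner start was read without a test. The sorted libraries are other samples than those of the single cells, so the 2 measures cannot be set against each other cell by cell.

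**Figure D5:**
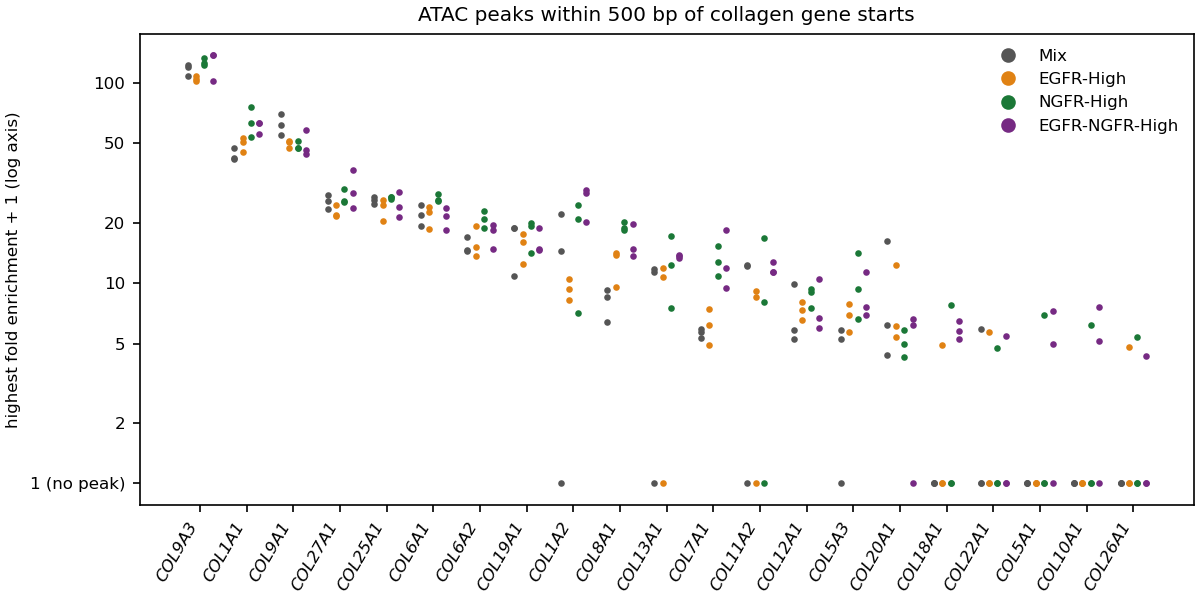
Highest fold enrichment of an ATAC peak within 500 bp of the start of collagen genes, plus 1, on a log axis, in the 12 libraries; each point is 1 library, and colours mark the 4 sorts. COL8A1 is lowest in the 3 Mix libraries (5.38, 7.54 and 8.23), COL9A3 is above 100 in all 12, and COL5A1 has no peak in 9.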

How the data were processed

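Single-cell libraries were made with 10x 3′ chemistry, and the deposited counts (UMIs per gene and cell) were made by the authors with Cell Ranger on hg38, aggregated without depth normalization and filtered in Seurat on genes per cell, where a high number marks likely doublets, and on mitochondrial percent. No doublet caller was run here. States, clusters and phases are the authors' columns. UMIs were summed per well, library and state and divided by the total UMIs of that sum to give CPM. A gene at 5 CPM or more in at least 1 state was called between states at a 2-fold ratio with the same direction in all 8 wells (WM989) or in the 1 library (WM983B), without a test.

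Treatment libraries were tested with edgeR 4.0.16 (TMM, factors 0.934 to 1.07; quasi-likelihood; treatment plus replicate; Benjamini-Hochberg over all genes tested, 0.05). Each replicate was 1 well split over the plates, so the numbers pair the libraries; the deviations of same-numbered libraries correlated at 0.255 to 0.366 over 6 pairs. Tested on simulated data for TGFB1 over all cells (18389 genes), 77.2, 89.5 and 100% of genes changed by 0.5, 1 and 2 on the log2 scale were recovered, with 7 false among 176 calls. The SE beside a log2 change in these libraries is the size of that change divided by the square root of the test's F statistic. Primed libraries held as few as 25 cells.

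For ATAC-seq the authors aligned OMNI-ATAC reads with bowtie2 2.3.4.1, removed duplicates and called peaks in each library with MACS2 2.1.1.20160309 on inferred Tn5 insertions; the fold enrichment ratio of each peak was used as deposited by the authors, for 213412 to 271153 peak entries a library. Where several peaks lay within 500 bp of a start the highest was taken, and genes with a peak in at least 3 of 12 libraries were tested with limma 3.58.1. Depth in reads was not given in the sources used here. Fold enrichment depends on local background as well as on signal.

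Members at 5 CPM or more in a state or called in a comparison were named, and of the processing and receptor lists up to 3 called genes that rose most and up to 3 that fell most in each comparison, at a mean of 10 CPM or more; other list genes were named after their values were seen. The members and the lists were chosen with earlier results of these data known. Alternatives were TMM scaling, minimum level, replicate or phase subsets, no block, DESeq2 1.42.0, size factors, filters, windows, pseudocounts, and each library or well left out. The −log10 q column that MACS2 gave the authors' peak files was used as deposited, only to rank peaks in 1 alternative. Cells of the treatment libraries were put in their treatment by the deposited condition column, which names the treatment but not the sample. The PI3Ki contrast in primed cells and the MANE Select start were added after the data were seen. R 4.3.3 and Python 3.11.15 were used.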

Additional observations from a re-analysis of the deposited data

Results flagged for a closer look

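In 2 of 26 groups of 8 wells, 1 well stood apart from the others by Dixon's test at the 95% level; chance alone gives about 1 group in 20 where samples are independent, and pairs of these wells shared a culture. COL5A3 in primed cells stood at 9.37 CPM in well 7, against 7.35 CPM in the next well, a gap of 0.604 of the range. COL6A5 in drug-susceptible cells stood at 6.34 CPM in well 6, against 11.3 CPM in the next, a gap of 0.788 of the range.

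COL9A3 was lower in primed cells in every untreated WM989 well (pooled ratio 0.452) and higher in the 1 WM983B library (ratio 1.16). In the untreated WM989 libraries of the treatment experiment it was also higher in primed cells. It stood there at 85.7 against 71.5 CPM in r1 and at 101 against 66.3 CPM in r2. The differences between the lines and between the WM989 experiments were not tested.

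In 5 of 23 pairs of a gene and a treatment, both replicates moved one way in drug-susceptible cells and the other way in primed cells. Over all genes compared by the same rule this held for 16.1% of 29268 pairs, and for the members for 21.7%; the 3 treatments share their untreated libraries. In the log2 ratio to the untreated library of the same replicate, r1 then r2, COL6A1 under TGFB1 stood at 0.81 and 0.85 in drug-susceptible cells against −0.96 and −0.78 in primed cells. COL6A2 under TGFB1 stood at 1.27 and 1.35 against −0.45 and −0.25, and under TGFBRi at 0.0090 and 0.29 against −0.16 and −0.17. COL9A3 under TGFB1 stood at 1.34 and 1.03 against −0.12 and −0.32. COL27A1 under PI3Ki stood at −0.048 and −0.23 against 1.54 and 0.46, with 25 and 70 primed cells. None of these 5 differences was tested.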

How the results depend on the processing

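No result reversed under the alternatives run. The share of all genes called was not counted under any alternative, for ATAC-seq as well. The counts of members under the alternatives are therefore a description, and cannot be told apart from a change in calls over all genes. At 20 CPM in place of 5 the members higher in primed cells numbered 4 in WM989 (9 at 5 CPM) and 0 in WM983B (1). The 1 member lower in primed WM989 cells was COL9A3. With wells pooled, it was not called in r1 alone (0) and stood at a log2 ratio of −2.42 in r2 alone. Leaving out each well gave 0 to 1 lower and 9 higher. Without the replicate block, TGFBRi called 2 members over all cells (6 with it), 2 in drug-susceptible cells (6) and 0 in primed cells (1), and PI3Ki called 8 (13), 1 (6) and 1 (2); the TGFB1 counts stayed within 1.5 times. DESeq2 called 3 under PI3Ki in drug-susceptible cells, 0 under TGFBRi and 1 under PI3Ki in primed cells. With each library left out, the counts ran from 21 to 30 for TGFB1, 3 to 7 for TGFBRi and 4 to 14 for PI3Ki over all cells, from 13 to 18, 4 to 6 and 2 to 8 in drug-susceptible cells, and from 8 to 12, 0 to 3 and 0 to 3 in primed cells; TGFBRi in primed cells had 0 without the second TGFB1 library and 3 without either PI3Ki library.

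For ATAC-seq, EGFR-NGFR-High and NGFR-High called 2 and 3 members at 1000 bp, 2 and 3 with a peak required in all 12 libraries, and 0 and 0 with the 50000 peaks of highest q. EGFR-NGFR-High called 0 at a pseudocount of 0.5, 0 with a peak in at least 1 library and 0 at the MANE Select start. With replicate number as a block they called 0 and 2, and same-numbered libraries correlated at −0.039 to 0.0959, so the numbers do not pair them. With each library left out the counts ran from 0 to 1, 1 to 2 and, in EGFR-High, 0 to 0. Of the values for single genes, 1091 were counted as the same. Another 143 kept their direction but passed their threshold no longer, 28 of these without the block. For treatments and ATAC-seq, the same means called in the same direction. Between states it means a log2 ratio that moved by less than the spread between wells, or in WM983B the counting error. Such a value could still cross the 2-fold bound, as COL9A3 did in r1 alone. The causes were not tested. Primed cells of the untreated, TGFBRi and PI3Ki libraries were few, and a member missing from a count there may lie below the depth.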
